A study of Mus musculus with 96 samples.

Results

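Endothelial cells (ECs) and fibroblasts (FBs) of uninjured mouse hearts were compared by small RNA-seq. The comparison rested on the libraries labelled Day 0 (D0) of these cell types, 4 from ECs and 4 from FBs, which are 8 of the 96 libraries of a study of 4 cardiac cell types before and after myocardial infarction (MI). All 8 came from male C57Bl/6J mice of 12 to 14 weeks that had no MI, and every library pooled the RNA of 3 animals, 2 if one of them gave no sample. The study describes the pools of a time point as taken from the same animals across cell types. The EC and FB libraries are therefore not separate sets of animals, and which of them match is not stated. ECs were taken with beads coated with an antibody to CD144, the endothelial cadherin, after cells with the leukocyte antigen CD45 had been removed with beads. FBs were the cells left unbound by either antibody that stuck to an uncoated dish, and they are described as mostly DDR2-positive. EC libraries were made from 50 ng of total RNA with 16 PCR cycles and FB libraries from 150 ng with 15 cycles, and the libraries of each cell type were prepared as batches of their own. Cell type, isolation, input RNA, PCR cycles and preparation batch therefore cannot be told apart in any difference given here. In bulk libraries, fewer cells of a type and less RNA per cell cannot be told apart either.

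miRNAs are short RNAs cut from either arm of a hairpin (5p and 3p), and bases 2 to 8 of the mature strand, the seed, guide them to target transcripts. In the vessel wall, miR-126 is made by ECs from an intron of Egfl7 and supports vascular integrity and growth factor signalling, whereas miR-143 and miR-145 are made from a shared transcript in smooth muscle cells and pericytes, the mural cells that surround the endothelium. Cardiac FBs are known for the miR-199 and miR-214 transcript Dnm3os, and cardiomyocytes (CMs) for miR-1, miR-133, miR-208a and miR-499.

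The mature sequences behind the main differences are given with the seed in capitals and the other bases in lower case, from RefSeq on GRCm38.p6. The first set shows miRNAs higher in ECs, namely the endothelial markers miR-126a-3p and miR-139-5p, the Hox-embedded pair miR-10a-5p and miR-10b-5p, and miR-322-5p and miR-351-5p, known from the X chromosome.
miR-126a-3p: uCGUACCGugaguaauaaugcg
miR-139-5p: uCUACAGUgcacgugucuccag
miR-10a-5p: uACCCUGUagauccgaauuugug
miR-10b-5p: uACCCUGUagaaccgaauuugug
miR-322-5p: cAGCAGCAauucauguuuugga
miR-351-5p: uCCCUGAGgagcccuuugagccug
The second set shows miRNAs higher in FBs. It holds relatives of the first that have the seed of miR-322-5p (miR-195a-5p, miR-497a-5p) or of miR-351-5p (miR-125b-5p), or that differ from the miR-10 pair in the last bases of the seed (miR-99a-5p), and then the fibroblast markers miR-199a-5p and miR-214-3p, miR-34b-5p as the miRNA with the largest difference in favour of FBs among those of at least 100 CPM, and miR-127-3p of the imprinted Dlk1-Dio3 region.
miR-195a-5p: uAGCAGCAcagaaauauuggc
miR-497a-5p: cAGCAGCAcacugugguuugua
miR-125b-5p: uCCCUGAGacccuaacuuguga
miR-99a-5p: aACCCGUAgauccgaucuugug
miR-199a-5p: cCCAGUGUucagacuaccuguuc
miR-214-3p: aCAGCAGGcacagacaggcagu
miR-34b-5p: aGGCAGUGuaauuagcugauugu
miR-127-3p: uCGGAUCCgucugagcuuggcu

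The total count on mature miRNAs ranged from 2105446 to 20465553 in the EC libraries and from 2217588 to 19196750 in the FB libraries. Reads with no match to a mature miRNA made up 48.5% to 67.3% of the EC libraries and 27.7% to 31.3% of the FB libraries, so the groups did not overlap in this share, and its part in the differences was not tested. Levels are given as counts per 1000000 counts on mature miRNAs (CPM). Over the 448 miRNAs tested, the root mean square log2 difference was 0.56 to 0.83 between EC libraries, 0.44 to 0.97 between FB libraries and 2.06 to 2.50 between an EC and an FB library. The study states that 1 FB library of D0 was removed and does not name it. Here all 4 were kept, and FB replicate 2 was the shallowest and the farthest from the others. When every library was thinned to 2105446 counts, 573 ± 6.56 miRNAs (mean ± SD, n = 4) had at least 1 count in ECs and 587 ± 17 in FBs, ranges that overlap. Counts were more concentrated in ECs. The 10 leading miRNAs of each library took 63.8% to 65.2% of its counts in ECs and 51.7% to 58.2% in FBs.

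Of the 448 miRNAs tested, 155 were higher in ECs (34.6%) and 183 were higher in FBs (40.8%), and 110 did not pass edgeR's quasi-likelihood test at a Benjamini-Hochberg adjusted p under 0.05. The share of all miRNAs called, in either direction, was 75.4%, and for 67.4% the CPM of the 4 EC and the 4 FB libraries did not overlap. Any count of called miRNAs in a list has to be read against these shares. The median log2 fold change of ECs over FBs, over all 448, was -0.14, and -0.28 with scaling by library size alone. A difference of at least 4-fold was fitted for 70 of the miRNAs higher in ECs and 88 of those higher in FBs.

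**Figure D1:**
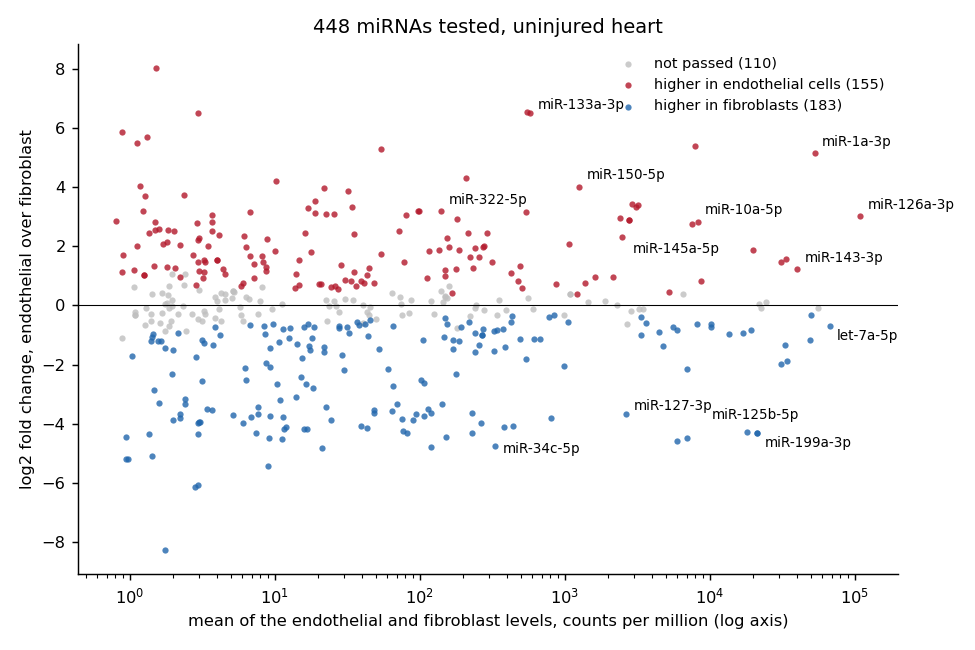
Each point is 1 of 448 miRNAs. The x axis gives the mean of the EC and FB levels in CPM on a log axis, and the y axis the log2 fold change of ECs over FBs, with red points for the 155 higher in ECs, blue points for the 183 higher in FBs and grey points for the 110 that did not pass. Differences of 4-fold and more appear at all levels, from miR-126a-3p and miR-1a-3p at the right to miRNAs near 1 CPM at the left.

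The resting endothelial profile was led by miR-126a-3p, with 19.3% of all counts, followed by miR-1a-3p (10.3%) and miR-143-3p (5.47%). The other leading miRNAs of the EC libraries were miR-26a-5p, miR-30a-5p, let-7a-5p, miR-30d-5p, let-7f-5p, miR-30e-5p and let-7c-5p. In FBs, miR-126a-3p ranked 11th, miR-1a-3p 43rd and miR-143-3p 13th, and let-7a-5p, let-7c-5p and miR-26a-5p led in that order. miR-26a-5p was at 51452 ± 5527 CPM in ECs and 60291 ± 6872 CPM in FBs (SD, n = 4 each) and did not pass the test (log2 fold change -0.09, SE 0.14).

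miR-126a-3p stood at 186639, 170792, 210396 and 204151 CPM in EC replicates 1 to 4 and at 28800, 27085, 20223 and 29978 CPM in FB replicates 1 to 4. Every EC library was above every FB library by a wide margin, so the marker went with the endothelial label. Its log2 fold change was 3.01 (SE 0.16, edgeR adjusted p = 6.2e-09). The hairpin lies at chr2:26591357-26591429 (GRCm38, plus strand) within Egfl7, where a transcript of the GENCODE annotation has an exon over it. The other arm, miR-126a-5p, was at 4812 ± 826 CPM in ECs and 722 ± 230 CPM in FBs, with a log2 fold change of 2.90 (SE 0.22). miR-126b-3p was listed with nearly the same counts as miR-126a-5p in every library, so these reads cannot be assigned to one of them.

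miR-139-5p, which lies in an intron of the phosphodiesterase gene Pde2a (chr7:101475376-101475443, plus strand), was at 904, 881, 1074 and 984 CPM in the EC libraries and at 135, 151, 82.3 and 111 CPM in the FB libraries. Its groups did not overlap, and its log2 fold change was 3.15 (SE 0.23). miR-10a-5p, encoded in the Hoxb cluster, was at 14391 ± 429 CPM in ECs and 2220 ± 357 CPM in FBs, with a log2 fold change of 2.83 (SE 0.16). Of the 8 endothelial miRNAs tested, 7 were higher in ECs and 1, miR-501-3p, was higher in FBs (20.7 ± 2.73 CPM in ECs, 101 ± 11.8 in FBs). The weakest were the arms of miR-151, with a log2 fold change of 0.97 (SE 0.22) for miR-151-3p and 0.74 (SE 0.31, edgeR adjusted p = 0.043) for miR-151-5p, and the latter lost its call with scaling by library size and without EC replicate 1, 2 or 3 or FB replicate 4. The list had a median log2 fold change of 2.87, against -0.14 over all 448.

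Both arms of miR-126a and miR-139 and miR-10a-5p stood in FBs at similar fractions of their endothelial level. The FB mean was 13.7% of the EC mean for miR-126a-3p, 15% for miR-126a-5p, 12.5% for miR-139-5p, 12.9% for miR-139-3p and 15.4% for miR-10a-5p. The rest of the list differed from them, with FBs at 55.8% of ECs for miR-151-3p, 66.8% for miR-151-5p and 488% for miR-501-3p. In the other direction the EC mean was 4.50% of the FB mean for miR-199a-3p, 4.03% for miR-199a-5p and 7.05% for miR-214-3p, but 58.6% for miR-152-3p, 69.3% for miR-140-5p and 107% for miR-140-3p, and both arms of miR-10b were higher in ECs. The summed level of the 3 endothelial markers (miR-126a-3p, miR-126a-5p and miR-139-5p) was 17.6% to 21.6% of counts in ECs, 2.10% to 3.10% in FBs, 0.446% to 0.983% in the 4 CM libraries of D0 and 5.52% to 9.24% in the 4 hematopoietic cell (HC) libraries of D0. HC replicate 3 had 18286 counts, so HC ranges include 1 shallow library. The study states that 1 HC library of D0 was removed and does not name it, and all 4 were kept here. CM libraries were made from 500 ng with 14 PCR cycles and HC libraries from 150 ng with 15 cycles. These settings cannot be told apart from cell type in comparisons with CMs and HCs either. The part of endothelial cells or of their RNA in the FB libraries was not tested.

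**Figure D2:**
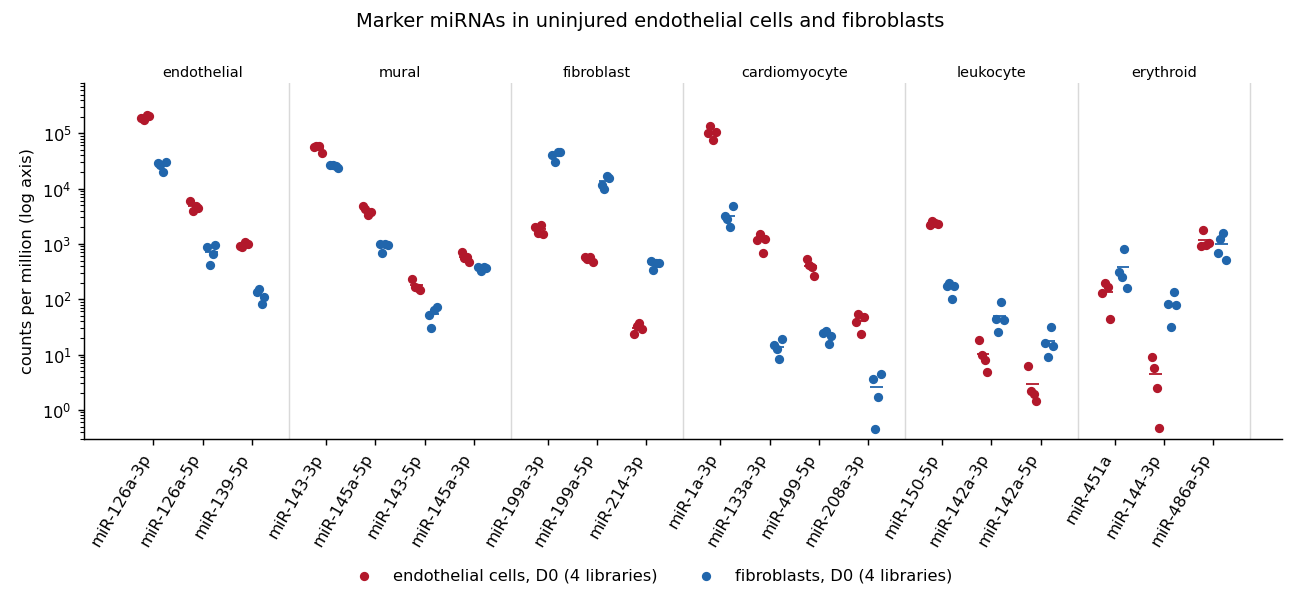
Levels of marker miRNAs in each D0 library in CPM on a log axis, with red points for the 4 EC libraries, blue points for the 4 FB libraries and short lines at the group means. ECs lie above FBs for endothelial, mural and cardiomyocyte markers and for miR-150-5p, FBs lie above ECs for fibroblast markers and miR-142a, and the groups overlap for miR-451a and miR-486a-5p.

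Markers of mural cells were higher in ECs than in FBs. miR-143-3p, the third most abundant miRNA of the EC libraries, was at 57172, 58567, 58648 and 44451 CPM in EC replicates 1 to 4 and at 26515, 26453, 25881 and 23597 CPM in the FB libraries. EC replicate 4 was the lowest of the ECs and still above all FBs, and the log2 fold change was 1.24 (SE 0.13, edgeR adjusted p = 2.9e-06). miR-145a-5p, its partner from the same transcript, was at 4841, 4346, 3348 and 3748 CPM in ECs and at 978, 694, 1006 and 971 CPM in FBs. Its groups did not overlap, and its log2 fold change of 2.31 (SE 0.15, edgeR adjusted p = 2.8e-08) was the largest of the mural list. The minor arms miR-143-5p and miR-145a-3p were at 177 ± 40.5 and 585 ± 103 CPM in ECs and at 54.2 ± 17.8 and 364 ± 28.5 CPM in FBs, with log2 fold changes of 1.86 (SE 0.23) and 0.83 (SE 0.15). All 4 mural miRNAs tested were therefore called higher in ECs, with a median log2 fold change of 1.55, and the fifth, miR-145b, was at 0.475 CPM or less in every library of both cell types.

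The 2 miRNAs of the mural transcript did not keep one proportion across cell types. There were 11.8 to 17.5 counts of miR-143-3p per count of miR-145a-5p in EC libraries, 24.3 to 38.1 in FB libraries, 32.6 to 144.9 in CM libraries and 18.7 to 38.7 in HC libraries. Set against the endothelial marker, miR-143-3p had 0.218 to 0.343 counts per count of miR-126a-3p in ECs, 0.787 to 1.28 in FBs, 2.30 to 5.88 in CMs and 0.295 to 0.440 in HCs, so ECs and HCs overlapped in this ratio. The upper HC bounds, 38.7 and 0.440, came from the shallow HC replicate 3, which had 11 counts of miR-145a-5p. miR-143-3p itself was at 29542 CPM on average in the CM libraries and 25611 in FBs, so these fractions lay close together and ECs stood above both. miR-145a-5p separated ECs more widely, with 4071 ± 657 CPM in ECs, 912 ± 146 in FBs and 396 on average in CMs. Whether mural cells that came with the ECs, or the ECs themselves, held these reads was not tested.

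Markers of CMs were also higher in ECs than in FBs. miR-1a-3p, the main CM miRNA, was at 100940, 132318, 74847 and 103708 CPM in the EC libraries and at 3149, 2764, 2033 and 4817 CPM in the FB libraries. These groups lie far apart, and the log2 fold change was 5.16 (SE 0.27, edgeR adjusted p = 3.9e-09). miR-133a-3p was at 1143 ± 334 CPM in ECs and 13.8 ± 4.62 in FBs, a log2 fold change of 6.51 (SE 0.32). The largest differences in favour of ECs among miRNAs of at least 100 CPM were miR-133b-3p (6.55), miR-133a-3p, miR-1b-5p (5.38), miR-206-3p (5.30), miR-1a-3p, miR-499-5p (4.32), miR-150-5p (4.02) and miR-378c (3.44), of which all but the last pair belong to the muscle families. miR-1b-5p followed miR-1a-3p, with 0.142 to 0.155 counts per count of miR-1a-3p in ECs and 0.115 to 0.143 in FBs, and miR-133b-3p followed miR-133a-3p with 0.948 to 0.960 counts per count in ECs, so these levels are uncertain as separate genes. Per count of miR-378d there were 0.825 to 0.96 counts of miR-378c and 0.908 to 1.085 of miR-378a-3p. The level of miR-378c is uncertain in the same way.

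All 6 CM miRNAs tested were called higher in ECs, with a median log2 fold change of 4.74. Their levels stood in unequal proportion to those of the CM libraries of D0. The EC mean was 15.7% of the CM mean for miR-1a-3p, 33.2% for the myosin-gene miRNA miR-499-5p, 35.4% for miR-208a-3p and 292% for miR-133a-3p. For miR-133a-3p the libraries overlapped, at 698 to 1508 CPM in ECs and 182 to 903 CPM in CMs. Within libraries there were 86.2 to 107 counts of miR-1a-3p per count of miR-133a-3p in ECs, 211 to 248 in FBs and 782 to 3381 in CMs, and 140 to 147 in HCs. The summed CM markers took 7.60% to 13.4% of counts in ECs, 0.206% to 0.486% in FBs, 60.3% to 70.9% in CMs and 8.58% to 13.2% in HCs. The EC and HC ranges overlapped. In ECs they were second to the endothelial markers among the 6 marker sets summed, and their part in the other differences was not tested.

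Markers of leukocytes split within their list. miR-150-5p, a miRNA of mature lymphocytes, was at 2195, 2584, 2376 and 2331 CPM in ECs and at 176, 198, 102 and 171 CPM in FBs, and its log2 fold change was 4.02 (SE 0.23, edgeR adjusted p = 8.6e-09). miR-146a-5p, a feedback regulator of inflammatory signalling, had 4204 ± 481 CPM in ECs and 601 ± 86.4 in FBs, a log2 fold change of 2.96 (SE 0.16). miR-342-3p had 314 ± 23.2 CPM in ECs and 45.7 ± 10.7 in FBs, a log2 fold change of 2.92 (SE 0.18). The pan-leukocyte miRNA miR-142a-3p went the other way, at 10.1 ± 5.64 CPM in ECs and 49.8 ± 27 in FBs (log2 fold change -2.19, SE 0.39), as did miR-142a-5p (log2 fold change -2.66, SE 0.45). The myeloid miRNA miR-223-3p was at 1.17 CPM or less in ECs and 1.35 or less in FBs, too low to enter the test. In the HC libraries of D0 without the shallow replicate 3, miR-223-3p averaged 747 CPM and miR-142a-3p 3560 CPM. miR-150-5p was at 2242 to 4024 CPM in these HC libraries, a range that overlaps that of the ECs. There were 122 to 491 counts of miR-150-5p per count of miR-142a-3p in ECs, 1.15 to 7.68 in FBs and 0.708 to 0.967 in the 4 HC libraries. Of the 8 leukocyte miRNAs tested, 6 were higher in ECs and 2 in FBs, with a median of 2.94.

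Erythroid miRNAs were either higher in FBs or did not pass the test. miR-451a was at 134 ± 66.1 CPM in ECs and 382 ± 287 in FBs with overlapping libraries (log2 fold change -1.35, SE 0.48, edgeR adjusted p = 0.023), and the call was lost without EC replicate 1 or 4 or FB replicate 3. miR-144-5p, from the same cluster, was at 15.3 ± 6.30 CPM in ECs and 116 ± 84.7 in FBs, a log2 fold change of -2.71 (SE 0.43). The largest difference of the list was that of miR-144-3p, with a log2 fold change of -4.14 (SE 0.52). It was at 0.475 to 8.98 CPM in ECs, on 1 to 50 counts, and at 32.0 to 134.9 CPM in FBs, without overlap. miR-486a-5p, which is listed with the counts of miR-486b-5p, was at 1183 ± 423 CPM in ECs and 997 ± 478 in FBs and did not pass the test, and neither did their 3p arms (log2 fold change 0.65, SE 0.35, for miR-486a-3p and 0.48, SE 0.36, for miR-486b-3p). Of the 7 tested, 3 were higher in FBs and 4 did not pass.

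A cluster of 6 hairpins on the X chromosome, from Mir450b to Mir322 (chrX:53047997-53054349, minus strand), was higher in ECs as a whole. All 9 of its miRNAs tested were called higher in ECs, with a median log2 fold change of 2.53. miR-322-5p was at 296, 194.8, 255 and 262 CPM in the EC libraries and at 30.3, 14.4, 35.6 and 42.2 CPM in the FB libraries. Its groups did not overlap, and its log2 fold change was 3.18 (SE 0.26, edgeR adjusted p = 2.4e-07). miR-351-5p, for which the annotation used here gave no position, had 377.8 CPM on average in ECs and 108 in FBs, with a log2 fold change of 1.95 (SE 0.21).

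Of the 5 other tested miRNAs with the seed of miR-322-5p, 2 were higher in FBs, 1 was higher in ECs and 2 did not pass. miR-195a-5p and miR-497a-5p, which share the AGCAGCA seed of miR-322-5p and come from a cluster on chromosome 11 (chr11:70234717-70235135), were higher in FBs, with log2 fold changes of -1.14 (SE 0.14) and -1.56 (SE 0.24). miR-16-5p, the most abundant miRNA of the seed group in ECs, was at 1328 ± 72.4 CPM in ECs and 1129 ± 258 in FBs with overlapping libraries (log2 fold change 0.40, SE 0.15, edgeR adjusted p = 0.028), a call that several alternatives lost. Summed over the 6 tested miRNAs with this seed, the level was 1947 to 2283 CPM in ECs and 1777 to 3020 CPM in FBs, ranges that overlap although single members differed. Of the CCCUGAG seed, miR-351-5p was higher in ECs and miR-125a-5p and miR-125b-5p were higher in FBs, and the summed level was 8795 to 9905 CPM in ECs and 42590 to 53311 CPM in FBs. Calls in both directions were found in 7 of the 45 seeds shared by at least 2 tested miRNAs with a sequence.

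miR-10a-5p and miR-10b-5p differ by 1 base outside the seed (A12U, the base of miR-10b-5p first, counted from the 5′ end), and the ratio of their counts stayed between 0.891 and 0.984 in the 8 libraries, and how reads were shared between them was not tested. miR-10b-5p was fitted with a log2 fold change of 2.74 (SE 0.16), although it stood on the fibroblast and mesenchymal list. miR-99a-5p and miR-100-5p, whose ACCCGUA seed resembles that of the miR-10 pair, were higher in FBs, at 55212 ± 11266 and 50711 ± 9622 CPM there and at 13696 ± 1585 and 11781 ± 1470 CPM in ECs. They too differ by 1 base (U16A) and had a near-constant ratio, of 1.06 to 1.21.

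The miR-30 and let-7 families, which make up much of both profiles, lay on opposite sides. All 11 miR-30 miRNAs tested were higher in ECs, with a median log2 fold change of 1.05, and the CPM of the groups did not overlap for any of the 11. miR-30a-5p was at 48994 ± 3436 CPM in ECs and 18531 ± 3356 in FBs, and miR-30d-5p at 44815 ± 3263 and 17882 ± 2500 CPM. Of the 9 listed 5p arms of let-7 and miR-98, 8 were higher in FBs and none in ECs, with a median of -0.87. The 3p arms were not on this list and were mixed. Of the 5 tested with the seed UAUACAA, 1 was higher in ECs, 2 were higher in FBs and 2 did not pass. let-7c-5p was at 28296 ± 581 CPM in ECs and 70655 ± 7622 in FBs, and let-7a-5p at 48441 ± 1800 and 86160 ± 4272 CPM. let-7g-5p, at 21378 ± 1068 and 22824 ± 1253 CPM, did not pass (log2 fold change 0.06, SE 0.10), and let-7f-5p (-0.32, SE 0.11) lost its call under several alternatives. The members differ by few bases, so reads of one may count for another.

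Smaller families associated with vessels showed smaller differences. Of the 8 tested of the miR-17-92 list, 4 were higher in ECs, 1 was higher in FBs and 3 did not pass. miR-20a-5p was at 681 ± 59.8 CPM in ECs and 308 ± 155 in FBs (log2 fold change 1.32, SE 0.28) and miR-17-5p at 240 ± 27.5 and 115 ± 45.9 CPM (1.22, SE 0.23), whereas miR-19b-3p was at 231 ± 41.3 and 257 ± 107 CPM (0.01, SE 0.25). In the miR-106b-25 list, miR-93-5p was higher in ECs at 559 ± 56.3 CPM against 295 ± 111 (1.09, SE 0.22), and miR-25-3p was at 2199 ± 207 and 2398 ± 320 CPM and did not pass (0.03, SE 0.14). The abundant miR-27a-3p and miR-27b-3p of the miR-23/27/24 clusters did not pass either (0.12, SE 0.14, and -0.09, SE 0.13), while miR-24-3p was higher in FBs (-0.61, SE 0.13). The antisense entry miR-3074-5p is the reverse complement of miR-24-3p and kept a near-constant ratio, with 1.40 to 1.61 counts of miR-24-3p per count of it, so their reads cannot be told apart here. The arms of miR-221 and miR-222, which restrain vessel growth, were all higher in FBs (3 of 3, median -0.67), and the smallest of these differences, that of miR-221-3p (-0.35, SE 0.14), lost its call without any 1 of 6 libraries. Of the 7 tested of the miR-181 list, 2 were higher in ECs and 3 in FBs, among them miR-181b-5p (-0.55, SE 0.13), while miR-181a-5p, at 3140 ± 318 CPM in ECs and 3780 ± 402 in FBs, did not pass (-0.12, SE 0.13). Of the miR-29 list, whose miRNAs repress collagens, 2 of 6 were higher in each cell type. miR-29a-3p was at 3965 ± 744 CPM in ECs and 7915 ± 3589 in FBs with overlapping libraries (-0.82, SE 0.28), and its call was lost without EC replicate 1 or 4 or FB replicate 3 or 4.

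**Figure D3:**
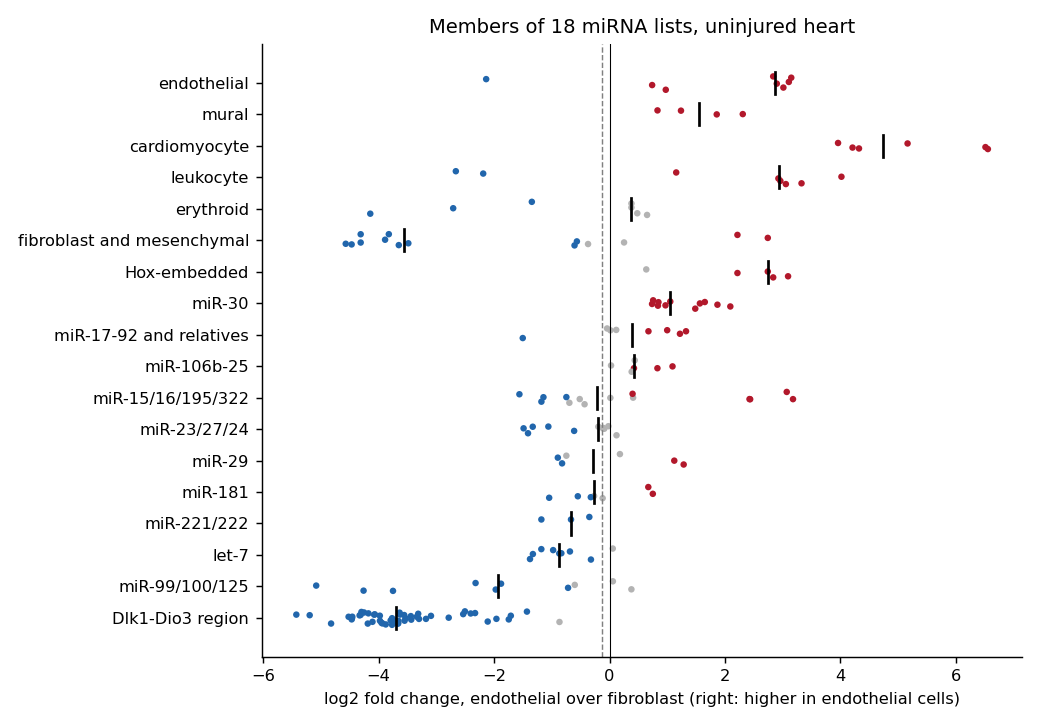
Log2 fold change of ECs over FBs for the tested members of 18 lists, 1 point per miRNA, in red where called higher in ECs, in blue where called higher in FBs and in grey where not passed. Short black lines mark list medians and the dashed line the median of all 448 miRNAs (-0.14). The medians of the endothelial (2.87), mural (1.55), cardiomyocyte (4.74), Hox-embedded (2.74) and miR-30 (1.05) lists lie to the right and those of the let-7 (-0.87) and Dlk1-Dio3 (-3.69) lists to the left, with miR-501-3p of the endothelial list and let-7g-5p on the other side from their medians.

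On the fibroblast side, miR-199a-5p was at 11404, 9867, 16894 and 15580 CPM in the FB libraries and at 581, 523, 589 and 474 CPM in the EC libraries. The groups were more than 10-fold apart, with a log2 fold change of -4.47 (SE 0.17, edgeR adjusted p = 7.8e-10). miR-199b-5p, a paralog, had a log2 fold change of -4.57 (SE 0.19), and miR-199a-3p and miR-199b-3p, which have the same sequence and were listed with identical counts, one of -4.31 (SE 0.18). miR-214-3p was at 483, 337, 448 and 458 CPM in FBs and at 23.8, 32.7, 36.8 and 28.5 CPM in ECs, with a log2 fold change of -3.65 (SE 0.19). The 4 miRNAs tested of Mir199a-2 and Mir214, which lie in exons of Dnm3os (chr1:162217814-162223477, plus strand), were all higher in FBs. miR-214-5p (-3.49, SE 0.22) and miR-455-5p (-3.82, SE 0.23) were higher in FBs too, and miR-152-3p less so (-0.61, SE 0.15). miR-140-3p (0.25, SE 0.13) and miR-140-5p (-0.37, SE 0.16), known from cartilage, did not pass. Of the 14 fibroblast and mesenchymal miRNAs, 10 were higher in FBs, 2 (both arms of miR-10b) in ECs, and 2 did not pass, with a median of -3.57.

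miR-125b-5p, a regulator of mesenchymal and stress responses, was among the most abundant miRNAs of FBs and far lower in ECs. It stood at 38563, 37196, 32080 and 31600 CPM in the FB libraries and at 1641, 1928, 1508 and 1541 CPM in the EC libraries, with a log2 fold change of -4.26 (SE 0.16, edgeR adjusted p = 7.5e-10). The largest differences in favour of FBs among miRNAs of at least 100 CPM were those of miR-34b-5p (-4.79) and miR-34c-5p (-4.73), which share a cluster and are induced by p53, of the 4 miR-199 entries, and of miR-337-5p (-4.46) and miR-434-5p (-4.31). miR-34c-5p was at 500, 402, 834 and 840 CPM in FBs and at 23.0, 17.9, 27.2 and 16.1 CPM in ECs. FB replicates 1 and 2 were the lower pair and still far above all ECs.

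The Dlk1-Dio3 region on chromosome 12, an imprinted locus whose miRNAs are expressed from the maternal allele, was higher in FBs as a whole. Of its 90 listed miRNAs, 52 were tested and 51 were higher in FBs, with a median log2 fold change of -3.69. The remaining one, miR-412-5p, had -0.87 (SE 0.37). The summed level over the 90 was 10265 to 11013 CPM in FBs and 633 to 815 CPM in ECs. miR-127-3p led with 5438, 5263, 4661 and 4519 CPM in FBs and 388, 352, 402 and 275 CPM in ECs, a log2 fold change of -3.67 (SE 0.18). miR-379-5p followed with 1525 ± 69.4 CPM in FBs and 99 ± 13.6 in ECs (-3.79, SE 0.17).

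The 2 arms of a hairpin were compared within libraries, by dividing 5p counts by 3p counts on a log2 scale, which does not depend on how libraries are scaled. Of the 124 hairpins whose arms each averaged 10 counts or more, 41 (33.1%) had a different ratio in ECs and FBs by limma at a Benjamini-Hochberg adjusted p under 0.05, 20 with relatively more 5p in ECs and 21 with more in FBs. The split is sensitive to single libraries, as only 13 hairpins had more 5p in ECs without EC replicate 2 and 12 without EC replicate 4 or FB replicate 1. The mural hairpin mir-145a had log2 ratios of 2.75, 2.95, 2.51 and 2.99 in ECs and of 1.34, 1.10, 1.40 and 1.41 in FBs. The groups did not overlap, and the difference was 1.49 (SE 0.18). The ratio of mir-143 differed by 0.66 (SE 0.31) and did not pass, and those of mir-126a (-0.09, SE 0.28) and mir-199a (-0.13, SE 0.17) did not pass either.

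Among hairpins whose arms each averaged 50 counts or more, relatively more 5p in ECs was largest for mir-29c (difference 2.15, SE 0.25), mir-127 (1.89, SE 0.54) and mir-144 (1.77, SE 0.54). Relatively more 5p in FBs was largest for mir-369 (-2.85, SE 0.78), mir-342 (-1.93, SE 0.47) and mir-340 (-1.75, SE 0.27). miR-29c-5p, the minor arm, had 22 to 210 counts in the EC libraries and 7 to 106 in the FB libraries, against 5000 to 153806 counts of miR-29c-3p. The calls of mir-127, mir-144 and mir-369 were each lost when certain single libraries were left out. miR-369-5p had 0 to 25 counts in ECs, miR-127-5p 5 to 27 and miR-144-3p 1 to 50, so their ratios rest on few reads.

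**Figure D4:**
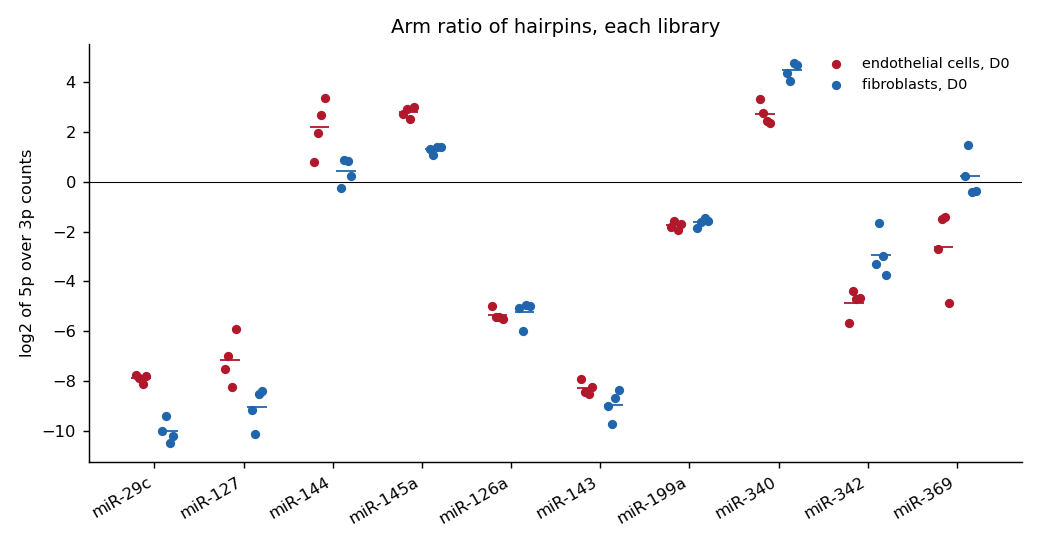
Log2 of 5p over 3p counts for 10 hairpins in each library, with red points for ECs, blue points for FBs and short lines at the group means. mir-145a separates the cell types (2.51 to 2.99 in ECs, 1.10 to 1.41 in FBs), mir-126a and mir-199a do not, and mir-144 overlaps although it was called.

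The cell types were set against each other again on D1, D3, D7, D14 and D28 after MI, in libraries separate from those of D0. Of the 448 miRNAs, 66.1% were called on D1 (31.2% higher in ECs, 34.8% higher in FBs), 65.4% on D3 (32.8% and 32.6%) and 75.0% on D7 (33.0% and 42.0%). On D14 the share was 67.4% (31.5% and 35.9%) and on D28 it was 54.0% (26.8% and 27.2%). Of the 155 miRNAs higher in ECs on D0, 60% to 81.3% were again called higher in ECs on a later day, where 26.8% to 33.0% of all miRNAs were. Of the 183 higher in FBs, 54.1% to 81.4% were again called higher in FBs, where 27.2% to 42.0% of all miRNAs were. Calls on all 6 days, in 1 direction, were found for 69 miRNAs higher in ECs and 84 higher in FBs. Scaling by library size alone changed the split of calls on D1 from 140 higher in ECs and 156 higher in FBs to 111 and 202, and on D3 from 147 and 146 to 110 and 215.

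miR-126a-3p kept its difference, with log2 fold changes of 3.13, 3.22, 2.79, 2.79 and 3.19 on D1, D3, D7, D14 and D28 (SE 0.13 to 0.27), none of which passed the test of a change against D0 in a fit of all 48 EC and FB libraries. In that fit the D0 median over all miRNAs was 0.13, against -0.14 in the fit of D0 alone. Its changes therefore do not equal the gaps between fold changes of single days. For miR-126a-3p on D3 the change was -0.30, although the single-day values were 3.22 on D3 and 3.01 on D0. The changes were not run with another scaling. The mural markers varied more. miR-143-3p had log2 fold changes of 1.36, 1.81, 0.22, 0.79 and 1.53, and the difference on D7 was smaller than on D0 (change -1.34, adjusted p = 0.012, edgeR), a call that 7 of 16 fits with 1 library left out lost. miR-145a-5p had log2 fold changes of 1.36, 2.04, 1.41, 1.53 and 0.40, and its change on D28 was -2.31 (edgeR adjusted p = 7.3e-06) and held with each of 16 libraries left out. Its level on D28 was 722 ± 413 CPM in ECs and 657 ± 245 CPM in FBs, against 4071 and 912 CPM on D0. The EC libraries of D28 were shallow, with 525651 to 3902765 counts, and 1 EC library of D28 was removed in the study without being named. Over all miRNAs the difference had changed against D0 for 1.34% on D1, 8.48% on D3, 24.3% on D7, 10.5% on D14 and 40.0% on D28, so the D28 changes of the mural markers fall on the day with the highest share. With 1 library left out, the number changed was 0 to 6 on D1, 37 to 70 on D14 and 166 to 217 on D28, against 6, 47 and 179. On D1 it was 0 to 3 without any EC library of D0, FB replicate 1, 2 or 3 of D0, or EC replicate 2 or 4 or FB replicate 1 or 2 of D1, and on D14 it was 70 only without EC replicate 1 of D14. On D3 it rose from 38 to between 85 and 100 without EC replicate 1, 2, 3 or 4 or FB replicate 2 of D0, and on D7 it went from 109 to 69 without FB replicate 4 of D7.

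**Figure D5:**
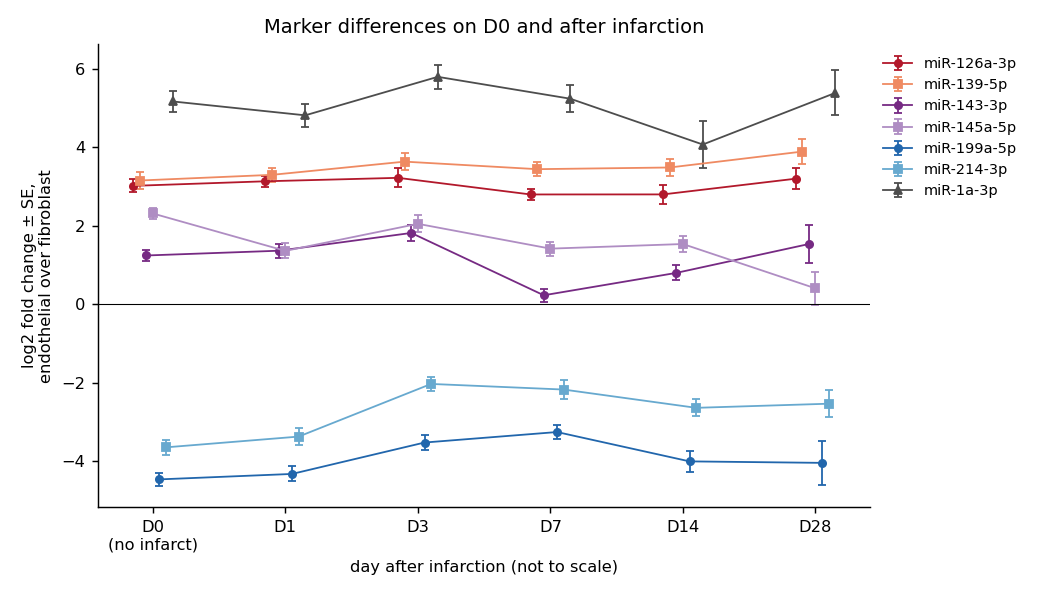
Log2 fold change of ECs over FBs (± SE, 4 against 4 libraries) of 7 markers on D0 and on D1 to D28 after infarction, with days evenly spaced. miR-126a-3p stays between 2.79 and 3.22 and miR-139-5p between 3.15 and 3.89, the mural pair falls to 0.22 for miR-143-3p on D7 and to 0.40 for miR-145a-5p on D28, and the fibroblast pair stays below -2.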

How the data were processed

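Small RNA-seq counts of 8 libraries, EC D0 and FB D0 with 4 replicates each, were compared. The authors prepared ligation-based libraries, removed adaptors and reads under 18 nt and aligned reads to the mature miRNAs of miRBase with the nf-core small RNA pipeline. The submitters' processing notes name Trim Galore, Bowtie2, SAMtools and the build mm10, and versions are not given in the sources used here. The deposited values are raw counts per mature miRNA. The line for unmatched reads (27.7% to 67.3%) was kept out of totals and tests. How reads that match several miRNAs, or the opposite strand, were assigned is not given in the sources used here, so levels of near-identical and antisense miRNAs are uncertain. Hairpin tables were not used.

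Counts were tested with edgeR 4.0.16 in R 4.3.3 (TMM factors, filterByExpr, quasi-likelihood test, Benjamini-Hochberg adjustment, threshold 0.05), which kept 448 of 1978 listed miRNAs. SE is the log2 fold change divided by the root of the F statistic. For arm ratios, log2((5p + 0.5)/(3p + 0.5)) entered limma 3.58.1. The change of a difference against D0 was tested in 1 edgeR fit of 48 libraries, scaled together by TMM and by no other method. Other steps used Python 3.11.15 with pandas 2.3.3 and numpy 2.4.6. The tests were checked on simulated counts of independent libraries. That setting holds neither the shared animals nor the preparation differences of these data, so the check does not cover them. The total was at least 2105446 counts, so miRNAs near 1 CPM had few counts in the shallowest libraries. Replicates are described as biological and as technical in different places, so p-values measure the spread between these pools.

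The comparison, its lists and its tests were chosen with earlier results of these data known. miRNAs were named by a rule: list members averaging 100 CPM or more in either cell type, singly for cell type lists and by count with up to 4 examples otherwise, the 8 largest differences in each direction without overlap, the 10 most abundant in ECs and the 3 hairpins with the largest arm difference in each direction. miR-322-5p, miR-351-5p, miR-497a-5p, miR-125b-5p, miR-127-3p and miRNAs of the later paragraph on other groups were named after their values were seen, as were markers under 100 CPM. Of the 448, 379 matched a RefSeq mature sequence and 355 a locus in GENCODE vM21 (GRCm38). Alternatives were DESeq2 1.42.0, other scalings, no filter, a replicate block, a minimum log2 fold change of 1, a pseudocount of 5, at least 50 counts per arm and leaving out each library.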

Additional observations from a re-analysis of the deposited data

Results flagged for a closer look

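Of 192 groups of 4 libraries looked at, 9 held 1 library far from the other 3 (Dixon's test at 95%), where chance gives about 1 in 20. EC replicate 4 was low for miR-143-3p (44451 CPM, the others 57172 to 58648) and for the summed mural markers (48816 CPM). FB replicate 2 was low for miR-145a-5p (694 CPM). EC replicate 1 was high for miR-142a-5p (6.25 CPM), miR-26a-5p (59705 CPM) and miR-342-3p (349 CPM). EC replicate 2 was high for miR-486a-5p and for miR-486b-5p, which has the same counts (1811 CPM), and for the summed erythroid markers (2012 CPM).

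The difference of ECs over FBs on a later day was tested against that on D0 for 21 markers on 5 days. Of these 105 pairs, 12 passed at an adjusted p under 0.05 (edgeR, 48 libraries). Over all 448 miRNAs, 1.34% passed on D1, 8.48% on D3, 24.3% on D7, 10.5% on D14 and 40.0% on D28. The 12 pairs have to be read against these shares, and changes were not particular to the markers. The changes are those of this joint fit and differ from the gaps between fits of single days. The mural markers were lower relative to FBs than on D0 for miR-143-3p on D7 (-1.34), miR-145a-5p on D7 (-1.23) and D28 (-2.31), miR-143-5p on D3 (-1.16) and D28 (-1.97), and miR-145a-3p on D28 (-1.69). The 3 changes on D28 held with each of 16 libraries left out in turn, and those on D3 and D7 did not. The fibroblast markers moved towards ECs for miR-214-3p on D3 (1.11) and D7 (1.16) and miR-199a-3p on D7 (1.51), which held in all 16 fits. On D28, miR-126a-5p changed by -1.13 and miR-144-3p by 2.23, calls that most or several of the fits lost, and miR-486a-5p changed by 2.43. The causes were not tested.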

How the results depend on the processing

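Of 103 single values, 72 kept direction and call in every alternative run. The number of miRNAs that differed was 338, and 309 to 348 with 1 library left out. It was 204 (98 higher in ECs, 106 higher in FBs) when a log2 fold change of at least 1 was tested. Other scalings, DESeq2 and no filter kept the count within 1.5 times. The EC and FB pools are described as coming from the same animals, and the main fit did not pair them. Equal replicate numbers were not shown to mark the matching pools (r of their deviations 0.03 to 0.15), and with the replicate number as a block 333 differed. In the fit of 48 libraries 308 differed, and the median over all miRNAs moved to 0.13. Hairpins with more 5p in ECs numbered 12 to 22 with 1 library left out, against 20, and those with more 5p in FBs were 32 with a pseudocount of 5, against 21. Signs turned for miRNAs that had not passed. With scaling by library size, miR-19b-3p was at -0.16, miR-25-3p at -0.12 and miR-27a-3p at -0.041. In the 48-library fit, miR-26a-5p was at 0.18, miR-27b-3p at 0.18 and miR-181a-5p at 0.15. With 1 library left out, miR-19b-3p lay between -0.188 and 0.194, miR-25-3p between -0.049 and 0.19, miR-26a-5p between -0.161 and 0.032, miR-27b-3p between -0.183 and 0.021, and the arm ratio of mir-126a between -0.342 and 0.016. With TMM-scaled CPM the log2 difference of summed markers was 3.02 for endothelial, 3.52 for leukocyte and 0.086 (turned from negative) for erythroid markers. Unthinned libraries held 668 miRNAs on average in ECs and 769.5 in FBs, and at least 10 counts after thinning were found for 306.5 and 318.5. Leaving out a library of a later day was added after the data were seen and kept the number of D0 calls seen again within 1.5 times.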

Other observations

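Some miRNAs outside the lists, or below 100 CPM, stood out and were named after their values were seen. The miR-200 family, known from epithelia, was low but higher in ECs. miR-200a-3p was at 16.5 to 52.3 CPM in ECs and 3.21 on average in FBs (log2 fold change 3.54), miR-200b-3p at 30.7 and 3.35 CPM on average (3.29), miR-141-3p at 11.9 and 1.62 CPM (3.17) and miR-429-3p at 4.40 and 0.357 CPM (3.74). The difference of miR-200c-3p, of the same family, was smaller (1.83). The hepatocyte miRNA miR-122-5p did not pass the test (0.26). miR-155-5p, an immune miRNA under 100 CPM, was at 61.7 ± 4.92 CPM in ECs and 6.43 ± 2.40 in FBs (3.33). miR-378a-3p, of the metabolic gene Ppargc1b, was at 5628 CPM in ECs, 622 in FBs and 7894 in CMs on average. miR-21a-5p, raised in fibrosis, was higher in FBs at 11708 CPM against 2361 (-2.14).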
